A study of Mus musculus with 3 samples.

Results

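The Arp2/3 complex is described here through the mRNA of its 10 mouse subunit genes, which were taken by gene symbol from a table of 46603 Ensembl genes, and all 10 were present. RNA-Seq of polyadenylated RNA covered 3 libraries of KO-NLS-beta-actin cells, numbered as replicates 1 to 3. These are mouse embryonic fibroblasts (MEFs) whose β-actin gene was knocked out and which express β-actin fused to a nuclear localization signal (NLS), so that every library carries both the knockout and the tagged protein. Libraries of KO or wild-type cells were not analysed here, and no level below is a change against another condition. Neither the labels nor the study's methods say whether the 3 libraries are separate cultures or how many clones the line holds, so the spread between them may be technical. Because the libraries are bulk RNA, fewer cells that express a gene and less RNA per cell cannot be told apart.

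Library totals ran from 44383636 to 49932446 counts, and a count of 0 would allow at most 0.0673 CPM (counts per 1000000 counts of the library, after edgeR's TMM scaling) in the smallest library. That limit is 3 counts and covers counting error only. Actb, the gene that was targeted, had 1078, 1111 and 1066 CPM in replicates 1, 2 and 3, and the counts do not separate the tagged construct from transcripts of the original locus. Of 10 fibroblast markers, 9 exceeded 3 counts in every library, led by Vim at 4562 CPM, while Dcn stood at 0.152 CPM and Fap reached no more than 1 count. Summed over the list, the libraries lay between 12171 and 13098 CPM. Blood markers came to between 7.49 and 10.6 CPM, most of it Cd68 at 8.57 CPM, and 2 of 7 passed 3 counts in every library, whereas Ptprc had 0, 1 and 0 counts and Cd3e had 0 in each. The 6 neuronal markers were all above 3 counts with a sum of 57.0 to 57.5 CPM, most of it Map2, and the epithelial list had 3 of 6, with a sum of 80.5 to 88.6 CPM, most of it Krt19 at 44.1 and Krt18 at 37.9 CPM, and Epcam at 0, 1 and 0 counts. For the endothelial list the count was 2 of 4 and the sum at most 2.53 CPM, with Cdh5 at 0, 0 and 1 counts.

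Arp2/3 nucleates a new actin filament on the side of an existing one and so builds the branched networks that push the leading edge of a fibroblast and drive endocytosis. Arp2 and Arp3 resemble actin and act as the first subunits of the new filament, ArpC2 and ArpC4 form the core that binds the mother filament, and ArpC1, ArpC3 and ArpC5 complete the assembly. The complex is largely inactive until a nucleation-promoting factor, such as those of the WASP or WAVE families, binds it. Each position is filled by a single polypeptide, and in the mouse 3 of the 7 positions can be filled by either of a pair of paralogs. These are ArpC1 by Arpc1a or Arpc1b, ArpC5 by Arpc5 or Arpc5l, and Arp3 by Actr3 or Actr3b.

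Whether reads of the paralogs can be told apart was examined first, since the comparison within each pair rests on it. Over their aligned coding bases Arpc1b and Arpc1a were 74.1% identical, Arpc5 and Arpc5l 71.3%, and Actr3 and Actr3b 76.3%. The longest run of identical bases was 21 in the first and second pairs and 20 in the third, and no 50-base window of a member's longest coding transcript occurred in any other member. The 90-base coding stretch in which the paralogs of each pair are most alike, and in which reads are hardest to assign, was taken from the GENCODE M21 transcripts on GRCm38 and is printed for each gene. Capitals mark the bases that differ within a pair, and positions count from the A of the start codon.
Arpc1b: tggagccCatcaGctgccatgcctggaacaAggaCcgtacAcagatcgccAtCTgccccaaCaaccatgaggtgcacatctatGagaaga
Arpc1a: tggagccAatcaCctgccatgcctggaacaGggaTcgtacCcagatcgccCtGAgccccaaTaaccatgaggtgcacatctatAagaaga
Arpc5: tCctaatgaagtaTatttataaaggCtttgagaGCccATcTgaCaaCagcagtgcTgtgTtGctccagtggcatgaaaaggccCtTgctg
Arpc5l: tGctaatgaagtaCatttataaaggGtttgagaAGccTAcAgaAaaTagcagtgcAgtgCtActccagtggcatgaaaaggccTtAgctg
Actr3: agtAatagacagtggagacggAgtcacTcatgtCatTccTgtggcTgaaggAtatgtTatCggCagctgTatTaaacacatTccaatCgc
Actr3b: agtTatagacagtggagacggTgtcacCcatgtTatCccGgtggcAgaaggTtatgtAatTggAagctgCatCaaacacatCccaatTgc

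The Arpc1 stretch covers coding positions 23 to 112 in both genes and differs at 10 of 90 bases. It crosses from exon 2 to exon 3 of either transcript, at chr5:145121698-145121739 and chr5:145122532-145122579 for Arpc1b and at chr5:145091205-145091246 and chr5:145092458-145092505 for Arpc1a, all on the plus strand. In the ArpC5 pair 15 of 90 bases differ, over coding positions 314 to 403 of Arpc5 and 320 to 409 of Arpc5l. That stretch joins exons 3 and 4, at chr1:152771461-152771540 and chr1:152774260-152774269 in Arpc5 and at chr2:39013820-39013899 and chr2:39015058-39015067 in Arpc5l, on the plus strand. Actr3 and Actr3b also differ at 15 of 90 bases, over coding positions 498 to 587 and across exons 6 and 7. Actr3 has it on the minus strand at chr1:125407292-125407334 and chr1:125405942-125405988, and Actr3b on the plus strand at chr5:25825173-25825215 and chr5:25829526-25829572. Every pair thus has its exon boundary at the same base of the aligned stretch. Any read of 50 bases from these transcripts differs from the other paralog at 1 base or more, but the read length is not given in the sources used here.

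Some members share sequence with other annotated genes. For Actr3, 49.8% of the 50-base windows also occur in annotated processed pseudogenes, mainly Gm8822 on chromosome X, which itself held only 69, 69 and 73 counts. Arpc1b shares 23.9% of its windows with 3 pseudogenes, of which Gm5637, also on chromosome X, had 46, 42 and 30 counts. How reads that match several places were counted is not given, so the levels of Actr3 and Arpc1b are uncertain to that extent. Arpc4 shares 10.5% of its windows with Ttll3, a neighbour on the same strand whose exons overlap those of Arpc4 by 283 bases and which had 308 to 395 counts. The other 7 members share at most 2.04% of their windows with any gene. Of the annotated exon bases of Arpc1b, 18.2% lie opposite Pdap1, a gene with 12931 to 15027 counts, although the longest coding transcript of Arpc1b shares no 50-base window with Pdap1. Whether counting used the strand is not given either.

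Counts were first scaled to CPM, which compares libraries for a gene. Actr2, which encodes Arp2 (chr11:20062304-20112913, minus strand), had 476, 429 and 478 CPM in the 3 libraries in order of their number, and replicate 2 lay below the other two. For Actr3, the main Arp3 gene (chr1:125392905-125435727, minus strand), the values were 610, 560 and 583 CPM, and replicate 2 was again lowest. Among 21624 protein-coding genes Actr3 held rank 180 by CPM, before any correction for length. Its paralog Actr3b (chr5:25759997-25850688, plus strand) had 166, 173 and 150 counts, or 3.32, 3.50 and 3.37 CPM. At this depth Actr3b was well above the limit of 3 counts, with a counting error of 7.83% per library that exceeds its spread between libraries of 2.73%.

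The ArpC1 subunit is a β-propeller that contacts the nucleation-promoting factor. Its genes are neighbours in the same orientation, Arpc1a at chr5:145083830-145108761 and Arpc1b at chr5:145114215-145130705, both on the plus strand. Arpc1a had 98.7, 99.0 and 98.7 CPM, while Arpc1b had 460, 517 and 481 CPM. Arpc1a was thus nearly level across libraries, with a spread of 0.198% of its mean against a counting error of 1.45%, and Arpc1b was highest in replicate 2. Arpc1b is known as the ArpC1 paralog of blood cells, where its loss causes an immune deficiency. Of the 7 blood markers, Cd68 with 357, 427 and 442 counts and Spi1 with 7, 12 and 14 exceeded 3 counts in every library. Ptprc had 0, 1 and 0 counts, Cd3e 0 in each and Lyz2 1, 12 and 2. Hbb-bs had 4, 2 and 14 counts and Hba-a1 5, 4 and 0. The part of blood cells in the Arpc1b level was not tested.

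Among the core and peripheral subunits without a paralog, Arpc2 (chr1:74236084-74268209, plus strand) had 411, 428 and 411 CPM. The other core gene, Arpc4 (chr6:113378115-113390448, plus strand), had 139, 144 and 142 CPM. Both were highest in replicate 2. Arpc3, whose product contacts Arp3 (chr5:122391878-122414184, plus strand), had 122.9, 127.9 and 134.1 CPM, with replicate 3 highest. Finally, Arpc5 (chr1:152766542-152775597, plus strand) had 364, 367 and 372 CPM, and Arpc5l (chr2:39005348-39015877, plus strand) had 83.4, 86.6 and 89.4 CPM. Both had their highest value in replicate 3 and their lowest in replicate 1. Together the 10 genes held 2768, 2762 and 2792 CPM, or 0.277% ± 0.00159 (SD, n = 3) of all counts.

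**Figure D1:**
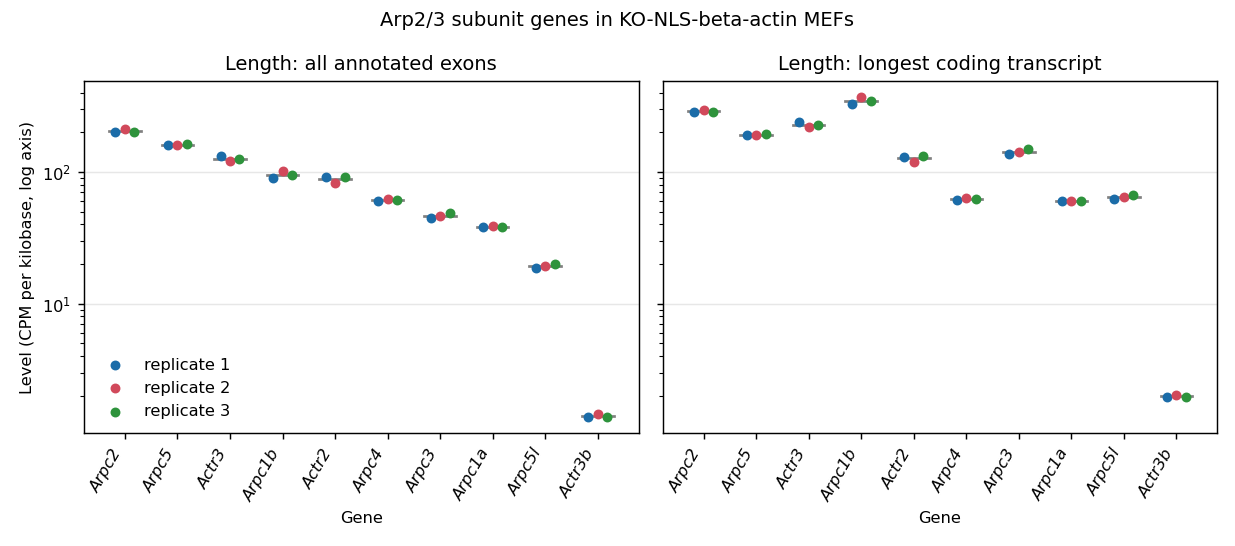
Level of each subunit gene in CPM per kilobase (log axis), with a point for each of the 3 libraries and a grey bar at their mean, divided by the length of all annotated exons (left) or of the longest coding transcript (right). Actr3b lies far below the other 9 genes under both lengths, Arpc1b moves from 95.01 to 348.6 CPM per kilobase, and the libraries of a gene lie close together.

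Levels of different genes were compared per kilobase, and the choice of length decided part of the order. With the length of all annotated exons, Arpc2 was highest at 205 ± 4.97 CPM per kilobase (SD, n = 3), followed by Arpc5 at 162 ± 1.70, Actr3 at 126 ± 5.38, Arpc1b at 95.01 ± 5.64 and Actr2 at 88.6 ± 5.32. The values of Arpc1b and Actr2 overlapped between libraries, so their order was not resolved. Below them came Arpc4 at 61.0 ± 0.985, Arpc3 at 46.5 ± 2.02, Arpc1a at 38.5 ± 0.0760, Arpc5l at 19.2 ± 0.672 and Actr3b at 1.40 ± 0.0382 CPM per kilobase. Apart from Arpc1b and Actr2, no neighbours in this order overlapped. On this scale 8 of the 10 members were above the 90th percentile of protein-coding genes, Arpc5l was at the 86.0th and Actr3b at the 55.3rd.

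Annotated exons include those of every annotated transcript of a gene, which lengthen some members more than others. For Arpc1b all exons span 5115 bases and the longest coding transcript 1394, while for Arpc4 the lengths are 2321 and 2270. Per kilobase of the longest coding transcript, Arpc1b was the highest member at 349 ± 20.7 CPM per kilobase (SD, n = 3), followed by Arpc2 at 290 ± 7.02 and Actr3 at 228 ± 9.71. Arpc5l at 64.6 ± 2.26 and Arpc4 at 62.3 ± 1.01 then overlapped between libraries. Actr3b was the lowest member under both lengths, at 1.98 ± 0.0541 CPM per kilobase under the second.

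Within each pair of paralogs, the same gene was higher in 3 of 3 libraries under every length tried, and only the size of the difference depended on the length. With all annotated exons, the level of Arpc1b was 2.34, 2.62 and 2.45 times that of Arpc1a, a mean of 2.47 ± 0.142 (SD, n = 3). The ratio was 5.76 ± 0.331 with the longest coding transcript, 4.84 ± 0.278 with the coding length and 4.92 ± 0.282 without a length. For Arpc5 the level was 8.64, 8.36 and 8.22 times that of Arpc5l, a mean of 8.41 ± 0.212. It was 2.98 ± 0.0750 times with the longest coding transcript and 4.31 ± 0.109 with the coding length. The order of these ratios therefore turned with the length, with Arpc5 over Arpc5l larger under all annotated exons and Arpc1b over Arpc1a larger under the other choices.

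The Arp3 pair stood apart in size. Actr3 was 96.1, 83.8 and 90.6 times Actr3b with all annotated exons, a mean of 90.2 ± 6.16 (SD, n = 3), and 115 ± 7.86 times with the longest coding transcript. The lower paralog made up 28.9% ± 1.17 of the summed level of its pair for Arpc1a, 10.6% ± 0.238 for Arpc5l and 1.10% ± 0.0751 for Actr3b. With the longest coding transcript these shares were 14.8% ± 0.718, 25.2% ± 0.472 and 0.865% ± 0.0592. All 3 differences were far larger than the spread between libraries, with log2 ratios of 1.30 ± 0.08, 3.07 ± 0.04 and 6.49 ± 0.10. An exact two-sided sign-flip permutation test over libraries gave p = 0.25 for each of the 3 pairs (0.25 after Benjamini-Hochberg adjustment), the smallest value that 3 libraries allow.

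**Figure D2:**
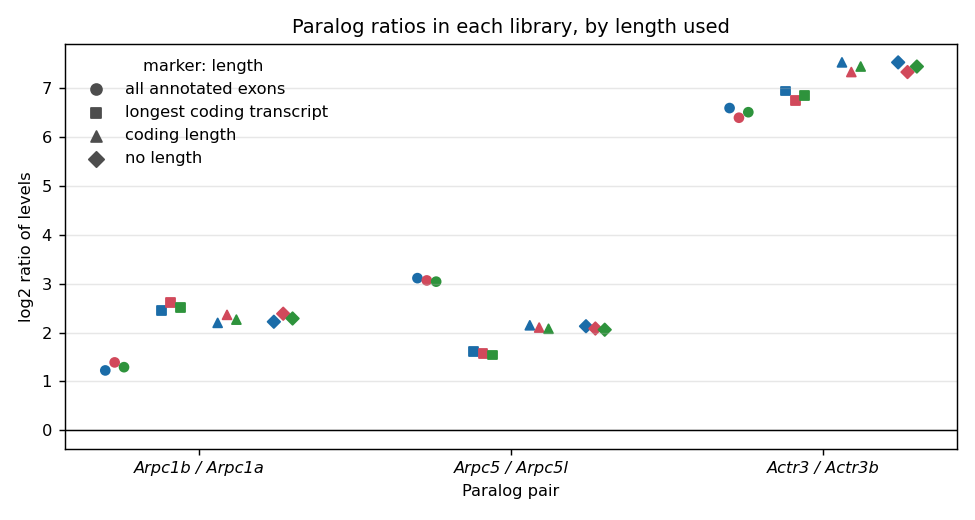
Log2 ratio of the levels of the paralogs in each pair, with a point for each library (blue, red and green for replicates 1, 2 and 3) and a marker shape for each length. All points lie above 0, the Actr3 and Actr3b ratio is the largest under each length, and the first and second pairs exchange their order between all annotated exons and the other lengths.

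To describe the balance of the complex, paralogs were summed within each of the 7 positions and each position was set against the geometric mean of all 7. With all annotated exons, ArpC2 was highest at 0.94 ± 0.04 above the geometric mean on the log2 scale (SD, n = 3), and ArpC5 followed at 0.76 ± 0.01. ArpC1 at 0.32 ± 0.06 and Arp3 at 0.26 ± 0.06 overlapped between libraries in their levels. Arp2 stood at -0.27 ± 0.08, ArpC4 at -0.81 ± 0.02 and ArpC3 at -1.20 ± 0.05. The highest position exceeded the lowest by 4.54, 4.55 and 4.17 times, a mean of 4.42 ± 0.217. ArpC1, ArpC2, ArpC5 and Arp3 were the upper 4 positions with all annotated exons, with the longest coding transcript and with the coding length, whereas their order changed. Without a length, Arp2 at 461 CPM was among the upper 4 and ArpC2 at 417 CPM was not. ArpC3 was lowest with all exons and with the coding length, and ArpC4 with the longest coding transcript, at -1.58 ± 0.02.

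**Figure D3:**
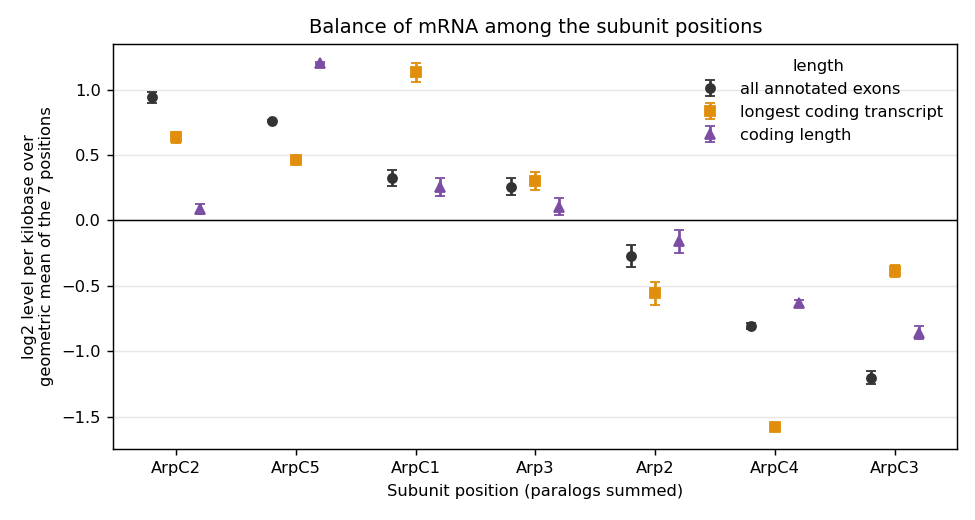
Level of each subunit position, with paralogs summed, as the log2 ratio to the geometric mean of the 7 positions; points are means of 3 libraries, bars are SD, and marker shapes give the length used. ArpC2, ArpC5, ArpC1 and Arp3 lie above 0 and Arp2, ArpC4 and ArpC3 below it under all 3 lengths. For every position the highest and the lowest value of the 3 lengths lie further apart than the SD. Some pairs of lengths lie closer, such as Arp3 at 0.26 with all annotated exons and 0.30 with the longest coding transcript.

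Other assemblies whose subunits occur in equal numbers were measured in the same way. For the chaperonin TRiC, which folds actin, the highest of its 8 subunit genes exceeded the lowest by 3.40 ± 0.0211 times (SD, n = 3), and for the COP9 signalosome, which removes NEDD8 from cullins, the factor was 4.09 ± 0.339 over 8 positions. The longest coding transcript gave 6.56 ± 0.228 for Arp2/3, 2.39 ± 0.0593 for TRiC and 2.93 ± 0.277 for the signalosome. With the coding length, Arp2/3 at 4.17 ± 0.119 was below the signalosome at 4.39 ± 0.360. Cct6a has no annotated coding transcript and was left out of TRiC under the last 2 lengths. The spread among Arp2/3 positions was thus wider than that of TRiC under each length but not always wider than that of the signalosome, and these differences were not tested. Actb was 3.79 ± 0.105 times the geometric mean of the 7 positions, and 3.03 ± 0.0824 times it with the longest coding transcript.

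How far the members varied between libraries was tested for every gene whose count reached 10 in each of the 3 libraries, by a chi-square of the counts against the scaled library sizes. The test compares libraries of the same condition with counting error. After Benjamini-Hochberg adjustment over all genes, 6 of the 10 members were called at an adjusted p threshold of 0.05, beside 6046 of 13814 genes, or 43.8%. The median SD of log2 CPM was 0.04 for the members and 0.08 for all tested genes. Deeply counted genes are called more readily, and among the 2895 genes with CPM from that of Arpc5l to that of Actr3, 72.2% were called with a median SD of 0.05. Of the 9 members in that range, 6 were called.

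The largest deviations were small in size. Actr2 was lower in replicate 2 than in the mean of replicates 1 and 3 by 0.15 on the log2 scale, with a counting SE of 0.01 and a chi-square adjusted p of 8.78e-34, and its highest library exceeded its lowest 1.11-fold. Actr3 was likewise lower in replicate 2, with a difference of -0.09 ± 0.01. In the opposite direction, Arpc1b was higher in replicate 2 by 0.14 ± 0.01, and Arpc2 by 0.06 ± 0.01. Arpc3 and Arpc5l were also called, with adjusted p of 6.70e-05 and 0.0188 in the chi-square test, but their extremes were replicates 1 and 3, with replicate 3 above replicate 1. Arpc1a, Arpc4, Arpc5 and Actr3b were not called, with adjusted p of 0.986, 0.246, 0.234 and 0.911.

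**Figure D4:**
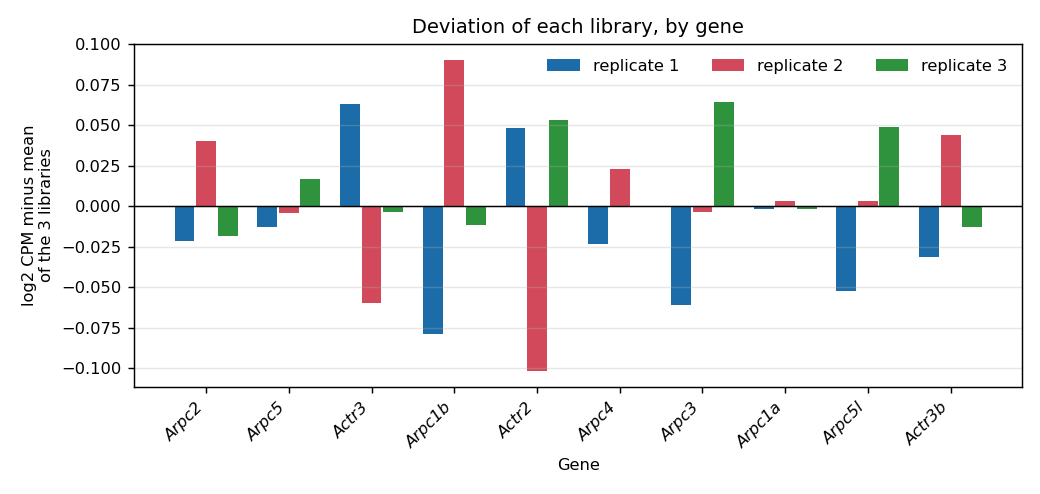
Log2 CPM of each subunit gene in each library minus its mean over the 3 libraries, as bars from 0. Replicate 2 is lowest for Actr2 and Actr3 and highest for Arpc1b and Arpc2, and bars for Actr3b are within its counting error.

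Replicate 2 differed from the other libraries along the GC content of transcripts. Over 12088 tested genes with a coding transcript, Spearman's rho between GC content and the difference of replicate 2 from replicates 1 and 3 was 0.561, and across the 10 members it was 0.806. Genes and members share the same 3 libraries and are not independent replicates, so no p is given. The longest coding transcript of Actr2 has 40.3% GC and that of Actr3 43.8%, while that of Arpc1b has 56.6%. For all tested genes the median difference was -0.09 in the 4030 genes of lowest GC content and 0.09 in the 4029 of highest. Arpc2 went the other way, with 46.6% GC and a higher value in replicate 2.

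Scaling the libraries within 10 equal bins of GC content, an alternative chosen after seeing the data, left 6 of 10 members called beside 31.8% of the 12088 genes with a coding transcript. With the usual scaling, 47.5% of the same 12088 genes were called. Within the GC bins Actr2 was no longer called, with a chi-square adjusted p of 0.788 and a difference of -0.01. Arpc5 was called, with an adjusted p of 0.000157 in the same chi-square test. Actr3 and Arpc1b stayed called, but their replicate 2 differences were then -0.003 and 0.04. Of the members Arpc2 then had the largest difference, 0.12 higher in replicate 2. With replicate 2 left out, 4 members were called, namely Actr3, Arpc1b, Arpc3 and Arpc5l, beside 12.5% of 14037 genes. In that comparison Actr3 was lower and the other three were higher in replicate 3 than in replicate 1. What separates the libraries was not tested.

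**Figure D5:**
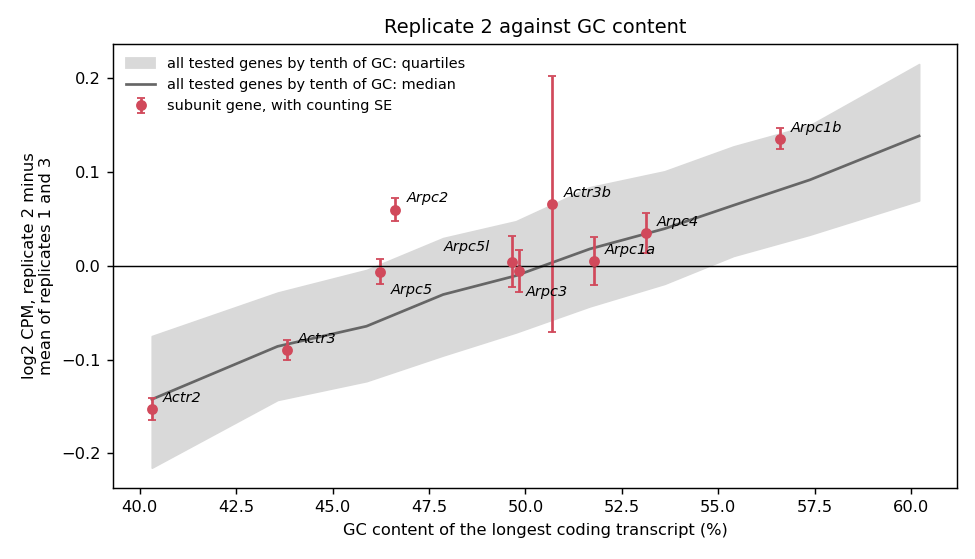
Difference of replicate 2 from the mean of replicates 1 and 3 (log2 CPM) against the GC content of the longest coding transcript in percent. Red points are subunit genes with counting SE, and the grey line and band are the median and quartiles of 12088 tested genes in 10 bins of GC content; Actr2 and Actr3 lie at the low and Arpc1b at the high end, and Arpc2 lies above the band.

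Of 8 nucleation-promoting factors, the proteins that switch the complex on, 7 exceeded 3 counts in every library. Their median level was 6.19 CPM per kilobase of all exons, against 74.8 for the 10 subunits, and the medians were 6.47 and 135 with the longest coding transcript. Wasf2, the WAVE protein of fibroblasts, had 21.9 ± 0.0706 CPM per kilobase of all exons (SD, n = 3), Washc1, which acts on endosomes, had 26.4 ± 1.07, and Wasl, which encodes N-WASP, had 13.4 ± 0.487. Wasf1 at 7.72, Jmy at 4.11 and Whamm at 4.66 CPM per kilobase were lower, and Wasf3 had 10 to 13 counts. Was, the blood-cell member of the family, had 1, 2 and 1 counts, none of them above 3 counts. Among the factors 2 of 7 tested, Washc1 and Wasl, were called as varying between libraries, beside 43.8% of all tested genes, with a median SD of log2 CPM of 0.06 beside 0.08.

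Of the 11 genes listed as regulators of branches or of the complex, 9 exceeded 3 counts in every library, with a median of 10.5 CPM per kilobase of all exons over all 11. Coro1b, a coronin that acts on branches, had 112 ± 4.96 CPM per kilobase (SD, n = 3) and Cttn, which encodes the branch stabiliser cortactin, 74.4 ± 0.862, both between Arpc4 and Actr3 on this scale. Coro1c was lower at 28.3 ± 0.296. Their counterparts of blood cells were low or absent, with Coro1a at 1.30 ± 0.0617 CPM per kilobase, Hcls1 at 1, 2 and 0 counts and Gmfg at 0, 1 and 1 counts. Gmfb, a debranching factor, had 15.6 ± 1.42 CPM per kilobase, and its CPM was lowest in replicate 2, at 95.5 against 113 and 112. The coding transcript used for Gmfb has 40.1% GC, but it spans only 739 bases against 6844 for all annotated exons. Of the inhibitors, Arpin had 28.9 ± 1.11 CPM per kilobase and Pick1 5.18 ± 0.302. In this list 6 of 9 tested genes were called as varying between libraries, beside 43.8% of all tested genes, with a median SD of log2 CPM of 0.06 beside 0.08.

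The remaining actin-related proteins belong to other assemblies and were measured for scale. Actr1a, the Arp1 filament of dynactin, had 77.3 ± 2.59 CPM per kilobase of all exons (SD, n = 3), between Arpc4 and Actr2, and Actr1b had 54.3 ± 1.48, between Arpc3 and Arpc4. Actr10, also of dynactin, had 7.21 ± 0.257 CPM per kilobase. The nuclear Arps of chromatin remodelers were lower with the exception of Actl6a at 32.7 ± 1.25, namely Actr5 at 3.41, Actr6 at 6.57 and Actr8 at 3.70 CPM per kilobase. All 7 exceeded 3 counts in every library, and 4 were called as varying between them, beside 43.8% of all tested genes, with a median SD of log2 CPM of 0.05 beside 0.08.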

How the data were processed

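For 3 libraries of 1 condition, the deposited values are raw counts for each Ensembl gene, not normalized by the authors. The submitters' processing notes name Trimmomatic, FastQC, HISAT2 and HTSeq and the builds mm10 and GRCm38; their settings, the annotation release, the read length and any use of strand are not given in the sources used here. Symbols were matched by identifier for 46005 of 46603 genes. Coordinates, lengths and transcript sequences came from GENCODE M21 on GRCm38. The longest coding transcript was that with the longest coding sequence.

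Library sizes were adjusted with TMM factors (edgeR 4.0.16 in R 4.3.3), with total counts and DESeq2 1.42.0 size factors as alternatives. Level per kilobase is CPM divided by a length. The chi-square had 2 degrees of freedom, with Benjamini-Hochberg adjustment over the genes whose count reached 10 in each library. It was tested on simulated data for 13814 genes with 200 changed in replicate 2. The test called 132 of the 200 at 1.2-fold and 161 at 1.5-fold, with 8 and 10 calls among unchanged genes. The simulated counts held counting error only, so they cannot show how the test behaves under other differences between the real libraries. A replicate is a library. When the log2 ratios of all 3 libraries share a sign, the sign-flip p is 0.25 whatever their spread, so it does not measure that spread. The chi-square p compares the spread between libraries with counting error. Windows of 50 bases were matched on both strands to all annotated transcripts. Python 3.11.15, numpy 2.4.6, pandas 2.3.3, scipy 1.17.1 and matplotlib 3.10.9 were used. Named genes are the members, the lists of regulators, other Arps, comparison complexes and markers, Actb, and annotated genes that share windows or exons with a member. Members and lists were chosen with earlier results of these data known.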

Additional observations from a re-analysis of the deposited data

How the results depend on the processing

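The direction of all 3 paralog ratios held under each alternative length, with a pseudocount of 1 count and without any library; when a library was left out, the log2 ratio was 1.26 to 1.34 for Arpc1b over Arpc1a, 3.05 to 3.09 for Arpc5 over Arpc5l and 6.44 to 6.54 for Actr3 over Actr3b. Their size depends on the length, as given above. The fold between the highest and the lowest subunit position moved from 4.42 to 4.17 with the coding length, 6.56 with the longest coding transcript and 4.72 with no length correction, since each length changes the divisor. It was 4.35 to 4.54 when a library was left out. The number of members that varied between libraries stayed at 6 under the other scalings, count filters and the deviance test, and was 4 to 5 when a library was left out. The number of all genes called was 5852 to 6070 under those scalings, filters and the deviance test, but the genes tested differed. The scalings and the deviance test took in 13814 genes. Without a filter beyond a total of 1 count, 5999 of 23189 were called. With at least 50 counts in every library, 5852 of 11845 were called. The number called fell to 1750 of 14037 without replicate 2, against 4592 of 13957 and 4807 of 14082 without replicates 1 and 3. With libraries scaled within 10 bins of GC content it was 3841. That scaling takes in only the 12088 genes with a coding transcript, of which 5740 were called with the usual scaling; both alternatives were chosen after seeing the data. With 3 libraries the exact sign-flip test cannot pass 0.05, and among the members the counting error per library was largest for Actr3b, at 7.83%. No paired analysis was possible because the 3 libraries share a single condition.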
